A study of Chrysanthemum x morifolium with 4 samples.

Results

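Of the 93837 unigenes (transcripts assembled from the reads) measured in chrysanthemum leaves, 31 stood high only in unfrozen leaves held at 4 °C. These were the unigenes with a deposited level of at least 10 FPKM after acclimation and at least 4 times the highest level in the other 3 libraries. FPKM is a read count scaled to transcript length and to the library's total, so levels of different unigenes can be set side by side. The members were thus chosen by the measured FPKM values of all 4 libraries, so their shared pattern is a description and was not tested.

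The leaves came from the cultivar Jinba (Chrysanthemum x morifolium), grown from tissue culture at 25 °C by day and 22 °C by night under 16 h of light, and used as seedlings of 20 days after 3 days in pots. The control leaves stayed under normal conditions. Acclimated leaves were kept at 4 °C for 24 h, acclimated and frozen leaves went on from the same 24 h to -4 °C for 4 h, and directly frozen leaves went to -4 °C for 4 h with no acclimation. Each treatment gave 1 library of leaves mixed from 3 replicates. Variation among plants is therefore unknown, and p-values are not given. The intervals below are exact 95% intervals of counting error alone. Reads may also be split between near-identical copies of a gene in this plant, which has several similar genome copies.

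Cold acclimation is the gain in freezing tolerance that many temperate plants make during a spell of low, non-freezing temperature. In Arabidopsis, chilling quickly switches on transcription factors of the CBF/DREB1 family, whose transcripts peak early. These factors turn on longer-lasting cold-regulated genes whose products protect membranes and proteins. Transcripts that respond to cold can therefore be short-lived or lasting. Gene names are not paired with the unigenes in the table, so no member can be given a role or placed in these families.

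The libraries held between 14024558 counts (acclimated, then frozen) and 15781435 counts (control), and 3 counts were taken as the limit that a count of 0 allows in a library. The members were a small part of the acclimated transcriptome. They held 0.0169% of control counts (interval 0.0162 to 0.0175%) and 0.308% of acclimated counts (0.305 to 0.310%). After acclimation and freezing they held 0.0489% (0.0478 to 0.0501%), and after direct freezing 0.0427% (0.0416 to 0.0438%). The group's share was thus 18.2 times the control share after acclimation and 6.29 times that of the acclimated and frozen leaves. The rule that chose the members builds in a higher acclimated share for the group and for any part of it. These ratios and the intervals are therefore descriptions, and the excess was not tested. The 2 most abundant members made up 60.8% of the group's acclimated counts. Without them the other 29 held 0.0103% of control counts, 0.121% after acclimation, 0.0185% after acclimation plus freezing and 0.0141% after direct freezing.

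Member levels after acclimation ran from 10.8 to 553 FPKM with a median of 26.9 FPKM. In the control the median was 1.44 FPKM (0 to 24.0 FPKM), after acclimation plus freezing 2.79 FPKM (0 to 85.3 FPKM), and after direct freezing 2.77 FPKM (0 to 122 FPKM). Most members were therefore moderate transcripts at 4 °C and scarce ones elsewhere. After acclimation 4 members reached 100 FPKM, 19 lay between 20 and 100 FPKM, and 8 lay under 20 FPKM. In the control 12 members were under 1 FPKM and 2 of these had no count. A level of 10 FPKM or more was also met by 3 members in the control, 5 after acclimation plus freezing and 6 after direct freezing. Below, members are ranked from 1 to 31 by their level after acclimation.

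**Figure D1:**
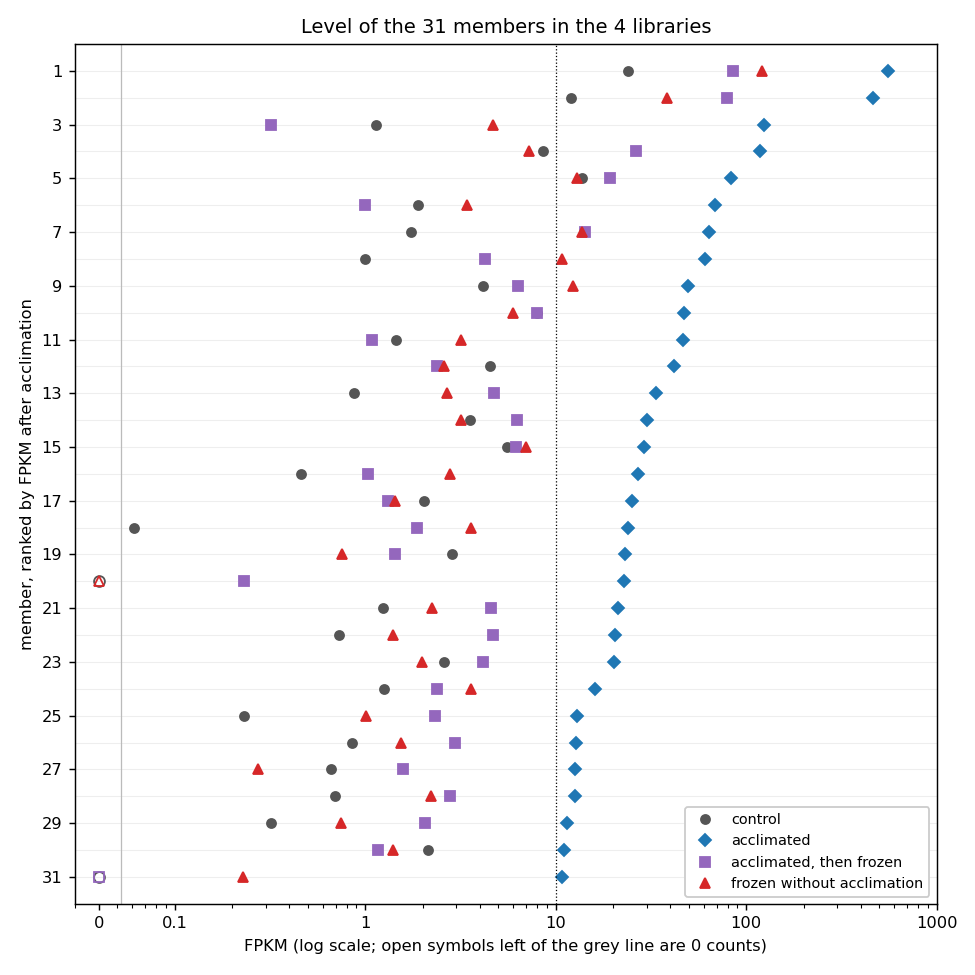
FPKM (log scale) of each of the 31 members, ranked by level after acclimation, in the 4 libraries, 1 point per library. The acclimated points run from 553 down to 10.8 FPKM and lie to the right of all others in every row, as the rule requires, while the order of the other 3 libraries differs from row to row.

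The most abundant member was c115084.graph_c1. It had 650 counts (24.0 FPKM) in the control, 14418 counts (553 FPKM) after acclimation, 2056 counts (85.3 FPKM) after acclimation plus freezing, and 2997 counts (122 FPKM) after direct freezing. Its acclimated level was the highest, and both frozen libraries lay well above the control. With libraries scaled by TMM, a trimmed-mean factor that balances the bulk of unigenes, its acclimated level was 23.4 times the control. It was 6.16 times the acclimated and frozen level (5.88 to 6.46) and 5.18 times the level in leaves frozen directly (4.98 to 5.39).

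Another member carries the same number in its identifier and differs in the last digit. It ranked 9, with 34 counts (4.14 FPKM) in the control, 393 counts (49.8 FPKM) after acclimation, 46 counts (6.31 FPKM) after acclimation plus freezing, and 92 counts (12.3 FPKM) after direct freezing. The order of the 4 libraries was the same in both, with direct freezing in second place and the control last. The sources used here do not say what a shared number means. If it marks pieces of 1 transcript or copies of 1 gene, the members are not all separate genes.

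The member with the highest lower bound of its ratio to the next highest library was c112305.graph_c0, ranked 3. It had 12 counts (1.13 FPKM) in the control, 1258 counts (124 FPKM) after acclimation, 3 counts (0.319 FPKM) after acclimation plus freezing, and 45 counts (4.68 FPKM) after direct freezing. The acclimated count was far above the rest, and the lowest count was that of leaves acclimated and then frozen. Its acclimated level was 111 times the control and 30.1 times direct freezing (22.4 to 41.5). Against the acclimated and frozen library, with its 3 counts, the ratio was 369 (126 to 1789).

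The further pair of named members, chosen by the lower bound of the ratio of the acclimated to the acclimated and frozen library, had much the same profile. Unigene c101054.graph_c0 had 17 counts (1.89 FPKM) in the control, 596 counts (69.0 FPKM) after acclimation, 8 counts (1.00 FPKM) after acclimation plus freezing, and 28 counts (3.43 FPKM) after direct freezing. Unigene c101997.graph_c0 had 12 counts (1.44 FPKM), 371 counts (46.4 FPKM), 8 counts (1.08 FPKM) and 24 counts (3.18 FPKM) in the same order of libraries. In both, the 3 other libraries lay at a low level, with direct freezing the highest of them. The log2 ratio of acclimated and frozen to directly frozen leaves was -1.47 (-2.86 to -0.34) in the first and -1.25 (-2.66 to -0.09) in the second. The acclimated level was 65.5 times the acclimated and frozen one (33.0 to 152) in the first and 40.7 times (20.5 to 95.1) in the second. In all 3 of these members the acclimated and frozen library was the lowest of the 4 in FPKM, which the choice of this pair favoured. Over the whole group it was the lowest in 6 members, directly frozen leaves in 7 and the control in 18. The same order over all unigenes was not worked out. In each of the 3 named members the counting interval of the acclimated and frozen level over the control held 1, so a place below the control was not resolved at this depth.

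The members differed widely in how far the acclimated level stood clear of the next highest library. On the deposited FPKM scale that ratio ran from 4.04 to 98.9 with a median of 5.54. It lay under 5 for 13 members, between 5 and 10 for 12, and at 10 or more for 6. Counting error alone left 17 members with an interval wholly above 4 after TMM scaling, while for the other 14 the interval held 4. The interval lay wholly above 2 for all 31 members, with a lowest bound of 2.58. Against the control all 31 were called higher after acclimation by an interval wholly beyond 2-fold, a call made for 4.79% of all unigenes, and all 31 were called lower at the freezing step that followed, a call made for 0.926%. Both contrasts entered the rule. The rule found 0.033% of all unigenes and 0.272% of the 11388 at 10 FPKM or more after acclimation.

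**Figure D2:**
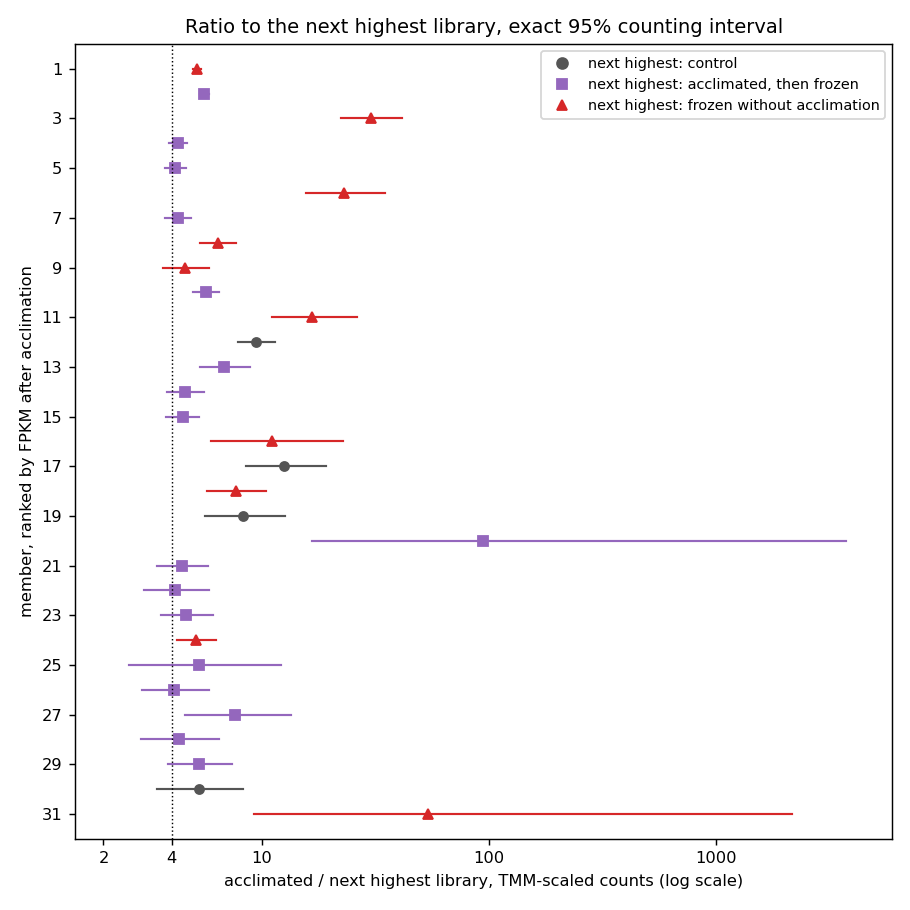
Ratio of the acclimated library to the next highest library for each member (log scale, TMM-scaled counts), with exact 95% counting intervals; colour and symbol give the next highest library, and the dotted line marks 4. Intervals lie wholly above 4 for 17 members and reach below it for 14, and the widest belong to members with 1 count in the next highest library.

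The largest ratios belonged partly to members with few counts. The member ranked 20 had 0, 107, 1 and 0 counts in control, acclimated, acclimated and frozen, and frozen leaves. The member ranked 31 had 0, 50, 0 and 1 counts in the same order. Both were close to undetected outside the acclimated library. With the control set to the limit of 3 counts, the ratio of the acclimated to the control level was 37.7 in the first and 17.6 in the second. The exact intervals, which also hold the error of the acclimated counts, put these ratios at 30.1 or higher and 13.8 or higher. Their ratios to the next highest library rest on 1 count there, at 94.0 (16.5 to 3748) and 53.8 (9.23 to 2167).

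The edge of the group was not a gap. Just inside the limit on the ratio stood members with ratios of 4.04, 4.15 and 4.32, and just outside it stood unigenes with 3.99, 3.98 and 3.95. In total 30 unigenes at 10 FPKM or more had ratios from 3 up to 4. The 3 lowest acclimated levels inside were 10.8, 11.1 and 11.4 FPKM, and the 3 highest outside, among unigenes that met the ratio, were 9.04, 8.77 and 8.74 FPKM.

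Most unigenes raised by acclimation did not behave as the members did at the freezing step. At 10 FPKM or more after acclimation, 908 unigenes stood at 4 times the control level or more. Of these, 760 (83.7%) kept 50% or more of the acclimated level in leaves then frozen, 104 kept between 25% and 50%, and 44 (4.85%) kept 25% or less. The members were 31 of these 44, and 3.41% of the 908. The other 13 were left out because their level after direct freezing exceeded 25% of the acclimated one. Those 13 had control leaves at a median of 2.73 FPKM and acclimated leaves at 30.2 FPKM. Their median was 2.55 FPKM after acclimation plus freezing and 14.8 FPKM after direct freezing, and in 5 of them direct freezing gave the highest level of the 4.

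**Figure D3:**
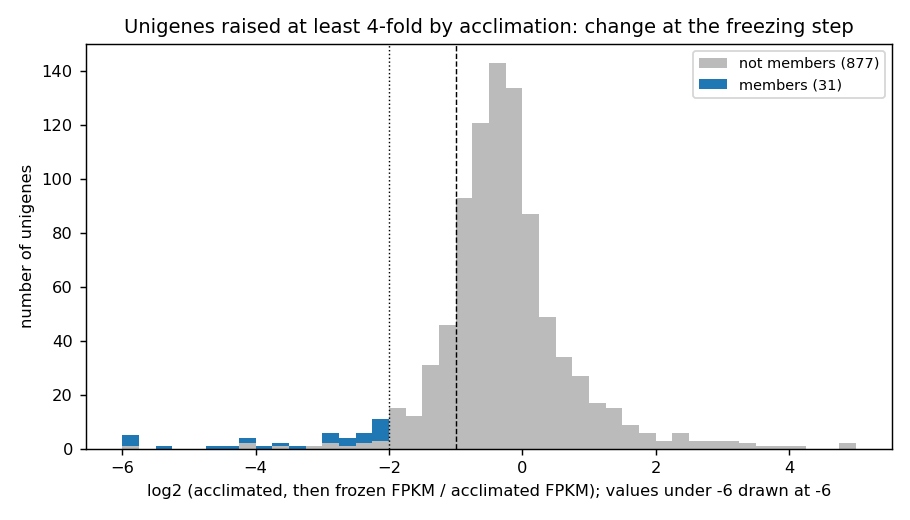
Number of unigenes by the log2 ratio of acclimated and frozen to acclimated FPKM, for the 908 unigenes at 10 FPKM or more after acclimation and at least 4 times the control; ratios under -6 are drawn at -6. The dashed line marks 50% kept and the dotted line 25% kept; the 31 members (blue) lie at or below the dotted line by rule, together with 13 of the 877 others (grey), whose range runs on into that of the members.

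The 760 unigenes that kept their level had a control median of 5.31 FPKM and an acclimated median of 36.3 FPKM. It was 35.9 FPKM after acclimation plus freezing and 10.6 FPKM after direct freezing. Members had a median of 14.8% of the acclimated FPKM left after the freezing step, with a range of 0 to 23.2%, against a median of 80.0% over all 908. Set against the control level, the part of the acclimation gain that was gone had a median of 92.4% and ran from 79.8 to 111%. It was 95% or more in 13 members and under 90% in 12. The same cap requires most of the gain to be gone in every member. Acclimated and frozen leaves had been in the cold 4 h longer than acclimated leaves. No library here comes from leaves held at 4 °C for that longer time, so freezing and the extra time cannot be told apart.

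What the rule left free was the order of the control and both frozen libraries, which it only capped at 25% of the acclimated level. The comparisons below use those 3 libraries. A member was called higher or lower where the whole interval of its TMM-scaled ratio lay beyond 2-fold. A low control level helped a unigene into the group, which by itself raises ratios to the control, so the counts below are descriptions.

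After acclimation and freezing some members stood above the control level. Against the control, 10 of 31 were called higher and 0 lower, where 6.98% of all 80023 unigenes compared were called higher and 5.15% lower. Among unigenes at 10 FPKM or more after acclimation, 18.2% were called higher and 6.33% lower. Where the interval needed only to leave out a ratio of 1, 19 members were higher and 1 was lower. The share over all unigenes at this looser limit was not worked out, and the percentages above do not apply to it. The median log2 ratio of the members was 1.08 (1.03 with counts of 0 set to 3), against -0.04 over all unigenes and 0.26 over those at 10 FPKM or more.

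After direct freezing 20 members stood above the control in FPKM, against 22 after acclimation plus freezing. By TMM-scaled log2 ratio the numbers were 20 and 23 of 31. The matching shares were 49.2% and 60.5% among unigenes at 10 FPKM or more after acclimation. By the call beyond 2-fold, 5 of 31 were called higher after direct freezing and 0 lower. Over the 81889 unigenes compared, 3.03% were called higher and 1.27% lower. Among those at 10 FPKM or more after acclimation the shares were 4.51% and 2.3%. By the same looser limit, again without a share over all unigenes, 11 were higher and 5 lower. The members' median log2 ratio was 0.74 (0.69 with counts of 0 set to 3), against 0.06 over all unigenes and -0.01 over those at 10 FPKM or more. Both comparisons use the same control library, so they are not independent. Of the 760 unigenes that kept their level, 200 (26.3%) were called higher after direct freezing, with a median log2 ratio of 0.65, and members were capped in that library where these were not.

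**Figure D4:**
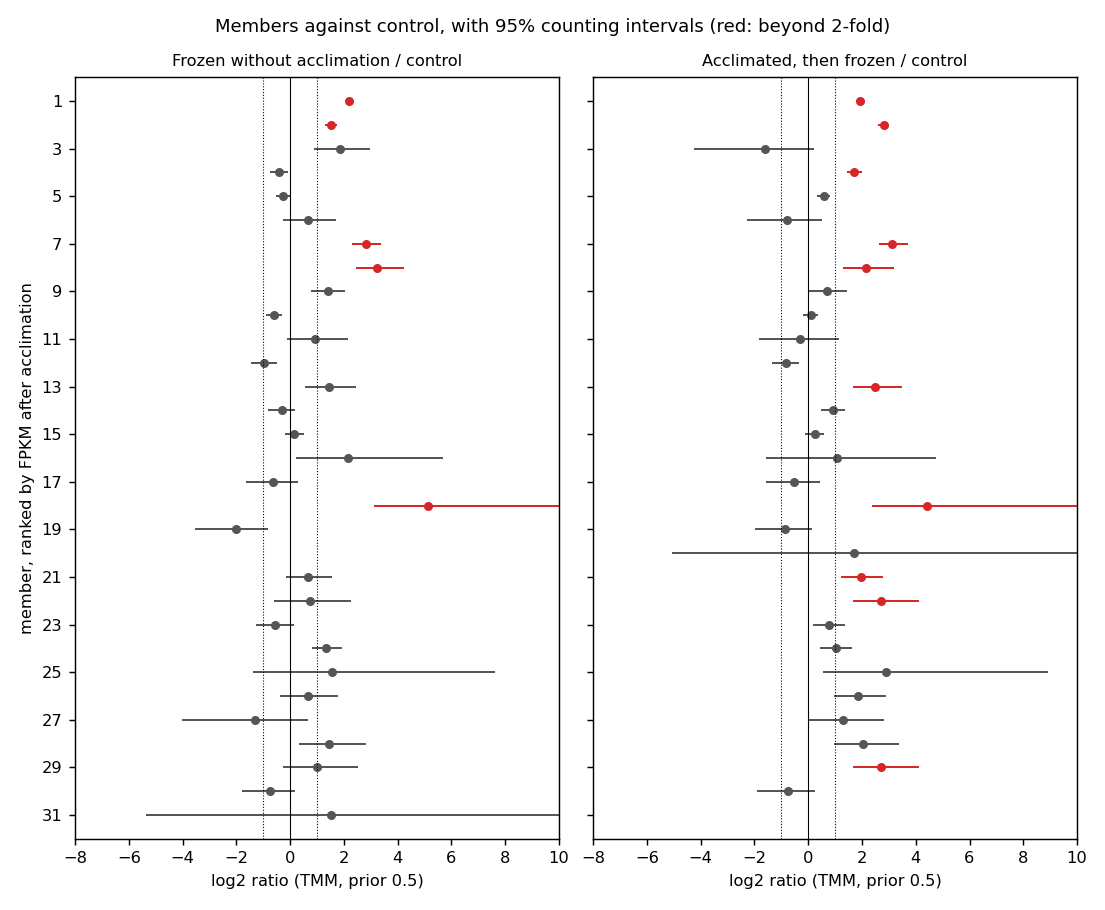
Log2 ratio of each member to the control in leaves frozen without acclimation (left) and in leaves acclimated and then frozen (right), with 95% counting intervals; dotted lines mark 2-fold, red marks intervals wholly beyond it, and a member at 0 counts in both libraries has no point. Red points number 5 on the left and 10 on the right, all on the higher side, and the same 5 members are red in both panels. The panels share the control library, and the overlap over all unigenes was not worked out.

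The calls divided the members into 3 classes. All 5 members called higher after direct freezing were also called higher after acclimation plus freezing, 5 more were called higher in the latter only, and 21 met neither limit. How often the calls overlap over all unigenes was not worked out, and both use the same control library, so the overlap is a description. A call in 1 comparison and not in the other does not show that the levels differ. The direct comparison of the frozen libraries, given below, called the members ranked 4 and 22 of those 5 higher after acclimation plus freezing. The members ranked 13, 21 and 29 met no call there, at log2 intervals of 0.50 to 1.65, 0.70 to 1.91 and 0.90 to 2.62. These intervals cover counting error alone.

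The class called higher in both held c115084.graph_c1 and the members ranked 2, 7, 8 and 18. In c115084.graph_c1 the log2 ratio to the control was 2.18 (2.06 to 2.30) after direct freezing and 1.93 (1.80 to 2.06) after acclimation plus freezing. The member ranked 2 had 379, 13967, 2209 and 1104 counts in control, acclimated, acclimated and frozen, and frozen leaves, or 12.0, 462, 79.0 and 38.6 FPKM. Of the frozen libraries, the acclimated one held more of this member, with a log2 ratio of 1.29 (1.19 to 1.40).

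The member ranked 7 had 39, 1388, 287 and 282 counts in that order of libraries, so both frozen libraries stood nearly equal and above the control. The member ranked 8 had 14, 819, 53 and 138 counts, with more after direct freezing than after acclimation plus freezing. The member ranked 18 had 1, 377, 27 and 53 counts. It was nearly absent from the control and present in both frozen libraries, at log2 ratios of 5.11 (3.16 to 11.03) after direct freezing and 4.43 (2.42 to 10.38) after acclimation plus freezing, both resting on 1 control count. In these 5 members a cold treatment of any kind went with a level above the control, and the acclimated one was the highest.

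The 5 members called higher only after acclimation plus freezing ranked 4, 13, 21, 22 and 29. They ran from 0.318 to 8.56 FPKM in the control, 11.4 to 118 FPKM after acclimation, 2.06 to 26.4 FPKM after acclimation plus freezing, and 0.744 to 7.23 FPKM after direct freezing. Their log2 ratios to the control were 1.72 to 2.71 after acclimation plus freezing and -0.41 to 1.43 after direct freezing. The member ranked 4 had 215, 2850, 588 and 165 counts in control, acclimated, acclimated and frozen, and frozen leaves. Its level after acclimation plus freezing was thus above the control. After direct freezing it was slightly under the control, with an interval of -0.71 to -0.11 on the log2 scale.

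Among the 21 members in neither class, the level after the freezing step lay near that of the control, or the counts were too few to place it beyond 2-fold. Their control median was 1.89 FPKM and their acclimated median 25.1 FPKM, against 2.33 FPKM after acclimation plus freezing and 2.59 FPKM after direct freezing. This class held c112305.graph_c0, c101054.graph_c0 and c101997.graph_c0. For c112305.graph_c0 the log2 ratio to the control was 1.84 (0.94 to 2.94) after direct freezing and -1.60 (-4.20 to 0.16) after acclimation plus freezing.

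On the deposited FPKM scale the control was the next highest library in 5 members, the acclimated and frozen one in 15 and the frozen one in 11. These places were not worked out for unigenes outside the group. The 5 with the control in second place ranked 10, 12, 17, 19 and 30 and ran from 2.04 to 7.98 FPKM there. That place puts both frozen libraries below the control in FPKM. After TMM scaling the control, the acclimated and frozen and the directly frozen library came next in 4, 17 and 10 members. The whole interval lay below the control in 3 of these 5 members after direct freezing and in 1 after acclimation plus freezing. That is the looser limit, and its share over all unigenes was not worked out. Picking members with the control in second place favours such counts. The member ranked 12 was below the control in both, with 127, 1131, 59 and 66 counts in control, acclimated, acclimated and frozen, and frozen leaves. The member ranked 19 had 29, 227, 13 and 7 counts in the same order, and its level after direct freezing was 0.237 times the control, with a log2 interval of -3.51 to -0.85.

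The frozen libraries were also compared with each other. Acclimated and frozen leaves were called higher than leaves frozen directly for 4 members (ranked 2, 4, 22 and 27) and lower for 1, c112305.graph_c0. Over the 81786 unigenes compared, 3.42% were called higher and 2.84% lower, and among those at 10 FPKM or more after acclimation 13% and 3.25%. In c112305.graph_c0 the 3 counts against 45 gave a log2 ratio of -3.44 (-5.95 to -1.98), and in the member ranked 27 the 17 counts against 3 gave 2.59 (1.01 to 5.21). The members' median log2 ratio was 0.58 (0.59 with counts of 0 set to 3), against -0.21 over all unigenes and 0.24 over those at 10 FPKM or more. Scaling by total counts moved every log2 ratio of this comparison by -0.26, and 1 member was then called higher and 1 lower. The same choice moved ratios by 0.16 for direct freezing against control and by -0.10 for acclimation and freezing against control.

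The lengths of the members follow from the deposited counts and FPKM. The median member had 1033 bases (275 to 2430), against 1300 bases over unigenes at 10 FPKM or more after acclimation and 1346 bases over the 760 that kept their level. Under 400 bases were 4 members (12.9%), against 2.38% of unigenes at 10 FPKM or more and 3.16% of the 760. The 6 members with a ratio of 10 or more to the next highest library had 305 to 871 bases and 50 to 1258 acclimated counts. The other 25 had a median of 1123 bases, against 548 bases for those 6. Short unigenes reach 10 FPKM on few counts, and the part of this in the length difference was not tested.

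Beside the pair noted above, 5 members shared their number with unigenes outside the group, 6 unigenes in all. None of these reached 10 FPKM after acclimation. Under the number of the member ranked 4, one such unigene had 3, 53, 2 and 0 counts in control, acclimated, acclimated and frozen, and frozen leaves, close to the pattern of the group at 7.52 FPKM. A further one under that number had 1, 11, 17 and 0 counts in the same order, with its highest level after acclimation plus freezing. Under the number of the member ranked 7, another had 249, 289, 234 and 256 counts and so was nearly level across the libraries. Under the number of the member ranked 17, another had 6, 3, 15 and 19 counts, with its lowest level after acclimation. The unigene under the number of the member ranked 8 had 0, 9, 0 and 0 counts, and that under the number of the member ranked 18 had 7, 32, 5 and 19. Of the 6 unigenes, 4 had their highest FPKM after acclimation, 3 of them on 53 counts or fewer in that library.

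The group was smaller than the corresponding groups of the other libraries. By the same rule 54 unigenes were high only in the control, 73 only after acclimation plus freezing and 72 only after direct freezing. With TMM-scaled FPKM the numbers were 33 for acclimation, 59 for the control, 111 for acclimation and freezing and 50 for direct freezing, so the acclimated group stayed the smallest while the order of the others changed.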

How the data were processed

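Total RNA of leaves was extracted with Trizol and sequenced by standard Illumina protocols, per the labels' protocols. The deposited counts are whole numbers per unigene, not normalized, per the file headers and values. FPKM as deposited is the count scaled by the library total and by 1 length per unigene, whichever library it is worked out from (relative difference of at most 2.04e-08). Per the submitters' processing notes, Bowtie 0.12.2, Cufflinks and the build mm8 are named; how a mouse build relates to these unigenes, the assembler, the counting rule and the use of strand are not given in the sources used here.

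Members were chosen on deposited FPKM. Ratios used counts scaled by TMM (edgeR 4.0.16, R 4.3.3) and exact Clopper-Pearson 95% intervals of the binomial share of a pair of counts (scipy 1.17.1). Log2 ratios used a prior count of 0.5. Unigenes with a count in either library were compared. No source names molecular identifiers, so intervals and limits cover counting error only. With 1 library per treatment no model was fitted. The steps were tested on simulated data. Alternatives were other scalings, thresholds, prior counts and filters. The members and lists were chosen with earlier results of these data known. The identifiers named are the member with the highest acclimated FPKM, the member with the largest lower bound of its ratio to the next highest library, and the next 2 by the lower bound of the acclimated to the acclimated and frozen ratio; other members are given by rank. No genome was used here.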

Additional observations from a re-analysis of the deposited data

Results flagged for a closer look

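Direct freezing was called higher than the control in 5 members: c115084.graph_c1 and the members ranked 2, 7, 8 and 18. All 31 were called lower at freezing after acclimation, which the rule itself fixes, so the opposite direction in these 5 is partly built in. The difference between the freezing responses was not tested, with 1 library per treatment. In all 5 the acclimated and frozen level was also called higher than the control, an overlap not worked out over all unigenes.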

How the results depend on the processing

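The number of members was 33 with TMM-scaled FPKM (all 31 plus 2) and 29 under median-of-ratios factors (28 of the 31 plus 1). It was 61 at 3-fold, 9 at 8-fold, 53 at a minimum of 5 FPKM, and 19 where the lower 95% bound on total-count scaling had to reach 4, each by construction of the limit. The groups high only after acclimation and freezing numbered 111 by TMM and 127 by median-of-ratios factors, and that of direct freezing 45 with median-of-ratios factors. The members' share under TMM and median-of-ratios scaling was 0.315% and 0.315% of the acclimated library, 0.0527% and 0.0547% of the acclimated and frozen one, and 0.0384% and 0.037% of the frozen one. For direct freezing against control, 11 members were higher and 5 lower when the interval only excluded equal levels, and 9 and 1 under a log2(FPKM + 1) difference of 1. For acclimation and freezing against control the looser interval gave 19 and 1. For acclimated and frozen against frozen it gave 13 and 6, total counts gave 1 higher, and the FPKM rule gave 4 lower. Shares over all unigenes were not worked out for these alternative calls. No direction of a median turned under any of the alternatives run, and 51 of 74 recomputed values stayed within their limits. Of the 31 members, 2 had under 100 counts after acclimation. Ratios of the acclimated level were least certain where the other library held 0 or 1 count, as in the members ranked 18, 20, 25 and 31. Replicates within a treatment were mixed before sequencing. No paired analysis was possible because each treatment has 1 library.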
